A study of Mus musculus with 9 samples.

Results

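The genes described here are those of mouse mitochondrial complex I whose symbols carry the Nduf stem. They are the rows of the deposited count table named Ndufa, Ndufb, Ndufc, Ndufs, Ndufv or Ndufaf with a number, without pseudogene names ending in -ps, and with a summed count of 90 or more over all embryos. The rule gave 45 of the 55401 genes in the table: 35 structural subunits, 8 assembly factors (Ndufaf1 to Ndufaf8) and 2 genes, Ndufa4 and Ndufa4l2, that carry the stem without being complex I subunits. All 45 passed the low-count filter and were among the 17818 genes tested. Genes just outside the minimum were Ndufs6b with a summed count of 11, Ndufa11b with 10 and Ndufb4c with 0, and those just inside were Ndufa4l2 with 796 and Ndufb4 with 1198.

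RNA-seq was run on bulk forebrain from 9 female embryos at embryonic day 16 to 17, of which 5 were WT (Npas3+/+) and 4 were Npas3+/- (HET). The line was on the C57BL/6J background with Npas3+/+ littermates as controls, and the labels do not give the litter of any embryo. The HET embryos carried 1 null allele of Npas3 in all tissues. NPAS3 is a basic helix-loop-helix PAS transcription factor, and the comparison asked how the loss of 1 copy changes gene expression in developing forebrain. Embryos are called here by genotype and label number, as WT5, WT15, WT16, WT41, WT43, HET5, HET6, HET7 and HET24.

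Complex I is the largest enzyme of the respiratory chain. It takes electrons from NADH through a peripheral arm, made of the N module that binds NADH and the Q module that reduces ubiquinone, and pumps protons through a membrane arm with a proximal and a distal part. The catalytic core is shared with bacteria and is encoded partly in the nucleus and partly in mitochondrial DNA, whereas the supernumerary subunits surround that core. Assembly factors help to build the modules and join them, and are not part of the finished enzyme.

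Total counts ranged from 42640218 to 62830060 per embryo, with a median of 45845845. The subunits together took 0.193% to 0.247% of the counts of an embryo and the assembly factors 0.0151% to 0.0191%. Every member had at least 29 counts in every embryo. Levels are given as CPM, the count of a gene scaled to the size of its library. Npas3 itself was at 36.2 ± 4.18 CPM (SD, n = 5) in the WT embryos, and its level in the HET embryos was 29.5 ± 3.09 CPM (SD, n = 4), with a log2 fold change of -0.30 (SE 0.101) and an adjusted p of 0.877 in edgeR. The labels name astrocytes as the cell type. The summed level of 6 astrocyte markers was 584 to 687.6 CPM per embryo, made up mostly of Slc1a3 (247.2 to 318.8), Aldoc (159.3 to 252.8) and Slc1a2 (82.7 to 184.8), with Gfap at 4.23 to 12.5 and Aqp4 at 0.163 to 2.02. That of 6 neuronal markers was 5899.4 to 6835.8 CPM. Choroid plexus RNA differed between embryos. Ttr was at 2127 to 2631 CPM in WT15, WT16 and WT41 and at 467 CPM in HET24, against 0.77 to 11.7 CPM in the other 5 embryos. All 10 choroid plexus markers were measured, and their summed level was 27.6 to 2983.2 CPM in WT and 37.7 to 555.1 CPM in HET. In the embryos with high Ttr this sum was mostly Ttr. Kcne2, Folr1, Kl, Clic6, Aqp1, Sostdc1 and Enpp2 were each higher in WT15, WT16, WT41 and HET24 than in any other embryo. Otx2 and Prlr did not follow Ttr. Otx2 was at 32.8 CPM in WT5 and 29.0 CPM in WT16, and Prlr at 1.14 CPM in HET7 and 0.13 CPM in WT16.

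Ndufs5 and a processed pseudogene share a near-identical stretch, and both sequences are shown because the split of counts between them differed greatly between embryos. Ndufs5 encodes a small supernumerary subunit of the proximal membrane arm, and on GRCm38 it lies at chr4:123712710-123718202 on the minus strand. A processed pseudogene, Ndufs5-ps, lies at chr16:42955631-42955949 on the plus strand in GENCODE M21. Its RefSeq record is wider, at chr16:42955580-42956079 (500 bases), and only the GENCODE M21 extent was aligned here. All 319 bases of that extent aligned without a gap to Ndufs5 from its start codon onwards, and 317 of them (99.4%) were identical. The differences were T81C and A105G, with the base of Ndufs5 first and positions counted from the A of its start codon, and both lay in exon 2 of Ndufs5. The 75 bases around them follow for chr4:123715950-123716024 on the minus strand and chr16:42955686-42955760 on the plus strand, both read from the transcripts of GENCODE release M21, with the differing bases in capitals.

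Ndufs5: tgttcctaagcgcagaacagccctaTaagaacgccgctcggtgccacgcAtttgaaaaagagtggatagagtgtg

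Ndufs5-ps: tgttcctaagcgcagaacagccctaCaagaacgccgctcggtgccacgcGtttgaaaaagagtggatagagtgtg

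A read from this stretch that covers neither capital matches both places equally well, and how such reads were counted is not given in the sources used here. Between them, the Ndufs5 and Ndufs5-ps rows held 690 to 1067 counts per embryo. Ndufs5 took 56.8% of them in WT5, 54.7% in WT16, 56.7% in WT41, 55% in WT43, 54.5% in HET5 and 52.5% in HET6. It took 98.1% in WT15, with an exact 95% binomial interval of 96.9% to 99.0%. It took only 4.07% in HET7 (2.83% to 5.64%) and 3.71% in HET24 (2.5% to 5.28%). The embryos thus fell at 3 separate levels, 6 near an even split, 1 almost wholly on the gene and 2 almost wholly on the pseudogene, and the 2 low embryos were both HET. These intervals cover counting error only.

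**Figure D1:**
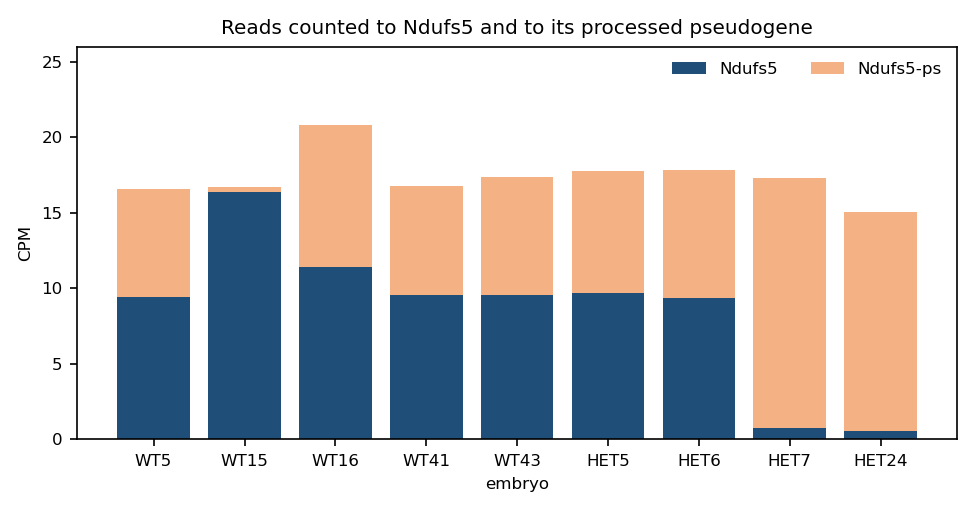
CPM assigned to Ndufs5 (dark) and to its processed pseudogene Ndufs5-ps (light) in each of the 9 embryos, stacked. The split moves from 98.1% on Ndufs5 in WT15 to 3.71% in HET24, while the height of the bars stays between 15 and 20.7 CPM.

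The sum of both rows varied far less than the split. It was 16.6, 16.7, 20.7, 16.8 and 17.4 CPM in WT5, WT15, WT16, WT41 and WT43, and 17.8, 17.9, 17.3 and 15 CPM in HET5, HET6, HET7 and HET24. WT16 was the highest embryo and the groups overlapped, with WT at 17.6 ± 1.74 CPM (SD, n = 5) and HET at 17.0 ± 1.36 CPM (SD, n = 4). The log2 fold change of the sum was -0.06 (SE 0.094) with an adjusted p of 0.941 in edgeR. For the Ndufs5 row alone the log2 fold change was -1.15 (SE 0.708, 95% interval -2.71 to 0.41) and for Ndufs5-ps it was 0.90 (SE 0.586), each with an adjusted p of 0.911 in edgeR. The value for the Ndufs5 row was -2.22 (SE 0.725) in limma-voom and -0.53 (SE 0.813) among embryos with Ttr under 100 CPM. The latter fit lacks WT15 and HET24, which had 98.1% and 3.71% of the counts on Ndufs5, and still holds HET7. Ndufs5 is therefore given as uncertain, and summaries of the subunits are given with and without it.

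No complex I gene passed the test between genotypes. In edgeR's quasi-likelihood test over all genes, 0 of the 45 members had an adjusted p under 0.05, against 25 genes (0.14%) of all those tested, and DESeq2 and limma-voom also called 0 members. The smallest adjusted p of any member was 0.911. At an unadjusted p under 0.05, 1 of 45 members passed in edgeR, beside 5.42% of all tested genes. In none of the 45 were the WT and HET levels fully apart. Groups did not overlap for 1.85% of all tested genes, so 0 of 45 does not set the members apart. In bulk tissue, fewer cells of a type and less RNA per cell cannot be told apart, and this holds for every level given here.

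Leaving Ndufs5 aside, the 95% intervals of the log2 fold changes of the other 34 subunits lay between -0.33 (Ndufb4) and 0.31 (Ndufa12), and those of the 8 assembly factors between -0.41 (Ndufaf8) and 0.24 (Ndufaf2). Standard errors of these subunits ranged from 0.061 to 0.143. The median log2 fold change was -0.02 for the subunits, with or without Ndufs5, and -0.06 for the assembly factors, beside -0.005 for all tested genes. A log2 fold change below 0 was found for 36 of 45 members, comprising 28 of 35 subunits and 7 of 8 assembly factors, beside 51.5% of all tested genes. That share rested on 1 embryo. Without WT16, 15 of 45 members were below 0 (9 of 35 subunits and 6 of 8 assembly factors), and the median became 0.04 for the subunits and -0.03 for the assembly factors. Embryos with Ttr under 100 CPM were WT5, WT43, HET5, HET6 and HET7. Among these, 18 of 45 members were below 0, and this fit also lacks WT16, so it is not a separate check.

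**Figure D2:**
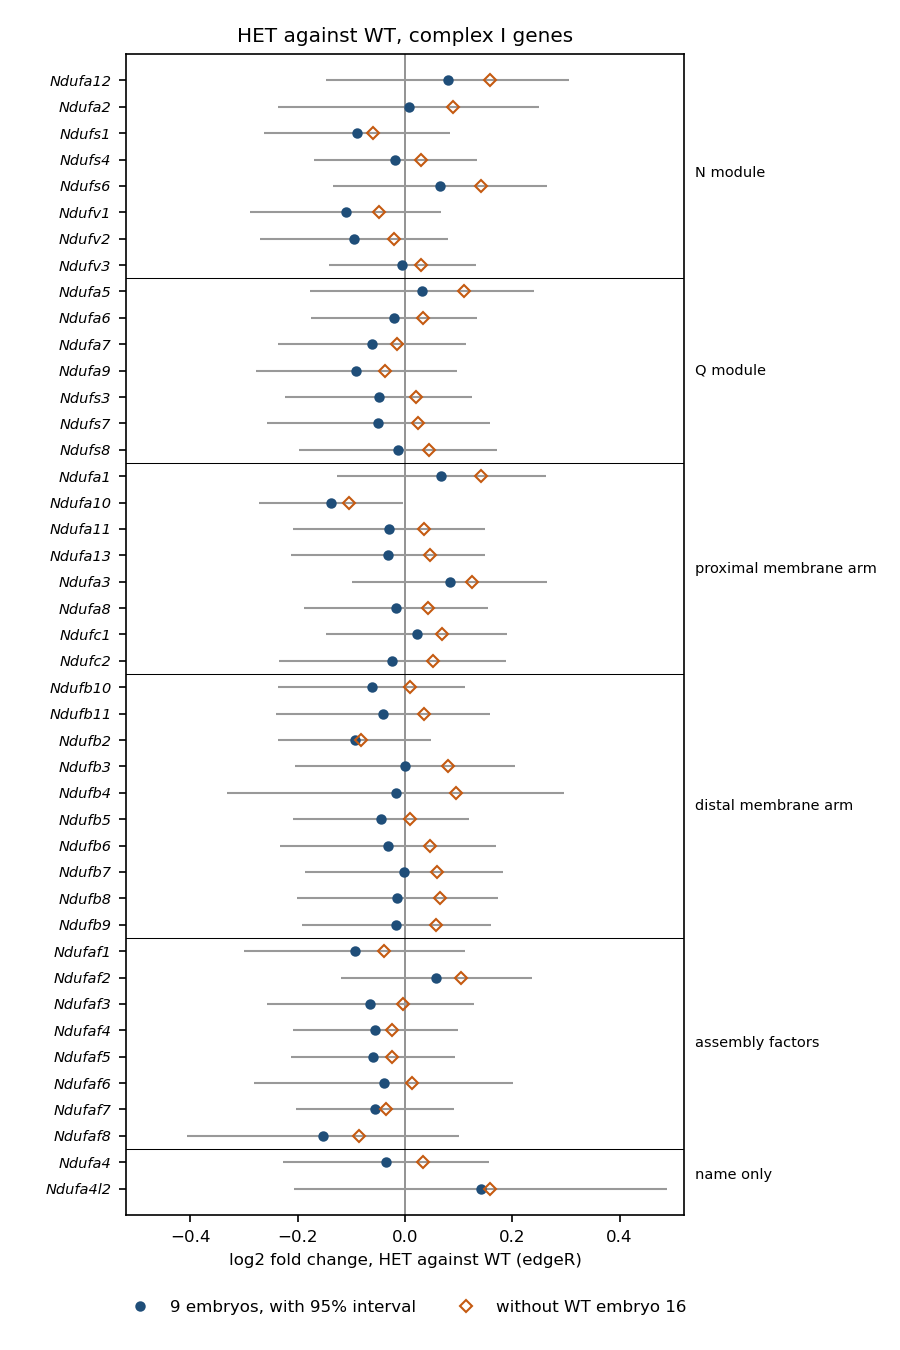
Log2 fold change of HET against WT for 43 genes, grouped by module, with the 95% interval derived from the edgeR test (circles and lines, 9 embryos) and the value without WT16 (diamonds). Ndufs5 is left out because its reads are split with a pseudogene. Of the 43 intervals, only that of Ndufa10 lies wholly on 1 side of 0, and leaving out WT16 moves most values to the right.

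Of the nuclear genes, 7 encode parts of the catalytic core, and all 7 had a log2 fold change below 0 with none called. In the N module, Ndufv1 carries the flavin that accepts electrons from NADH. Its level was 104.4, 96.6, 128.1, 103.4 and 115.8 CPM in WT5, WT15, WT16, WT41 and WT43 and 106.2, 100.6, 98.5 and 101.2 CPM in HET5, HET6, HET7 and HET24. The HET embryos lay inside the WT range, and the log2 fold change was -0.11 (SE 0.081, adjusted p = 0.911 in edgeR). Ndufv2, which holds an iron-sulphur cluster, ranged from 97.3 to 124.3 CPM in WT and from 93.4 to 100.9 CPM in HET, with a log2 fold change of -0.10. Ndufs1, the largest iron-sulphur subunit, ranged from 98.0 to 117.9 CPM in WT and from 90.9 to 113.1 CPM in HET, with a log2 fold change of -0.09. Core subunits of the Q module were closer to 0. Log2 fold changes were -0.05 for Ndufs3 and Ndufs7 and -0.01 for Ndufs8. Ndufs7 and Ndufs8 carry iron-sulphur clusters that pass electrons towards ubiquinone. Without WT16, 4 of the 7 core genes were below 0, with values from -0.06 for Ndufs1 to 0.05 for Ndufs8.

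The supernumerary genes held the extremes in both directions. Ndufa10, a subunit of the membrane arm related to nucleoside kinases, lies at chr1:92439010-92473860 and was the member with an unadjusted p under 0.05. Its level was 88.6, 85.5, 101.5, 91.9 and 97.4 CPM in WT5, WT15, WT16, WT41 and WT43, and 85.2, 82.9, 86.2 and 83.8 CPM in HET5, HET6, HET7 and HET24. All 4 HET embryos lay below the WT median, and HET7 lay above WT15, so the groups overlapped. The log2 fold change was -0.14 (SE 0.061), with an unadjusted p of 0.0458 and an adjusted p of 0.911 in edgeR. It was -0.10 without WT16. Ndufb2, of the distal arm, was the next supernumerary subunit after Ndufs5 and Ndufa10, at -0.09 (SE 0.065).

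At the other end, Ndufa3, of the proximal arm, had the highest log2 fold change of any subunit at 0.08 (SE 0.082). It was at 34.1, 31.2, 37.9, 32.2 and 35.5 CPM in the WT embryos in the order above and at 37.2, 39.4, 31.6 and 36.7 CPM in the HET embryos. HET7 was as low as the lowest WT embryos, and the other HET embryos were at the top of the WT range or above it. Ndufa12, Ndufa1 and Ndufs6 followed at 0.08, 0.07 and 0.07. Ndufa12 also has a processed pseudogene, Ndufa12-ps, with 78.8% of its 50-base words in common with the gene, so its level is uncertain. Of the counts of both rows, Ndufa12 took 86.7% to 89.6% in WT and 87.4% to 88.3% in HET, so the split varied little. Ndufa12 and Ndufs6 belong to the N module and are added late in assembly, and Ndufa1 is a membrane subunit needed early for the proximal arm. Their adjusted p values ranged from 0.933 to 0.938 in edgeR. Without WT16 the log2 fold changes of Ndufa12, Ndufa1 and Ndufs6 were 0.16, 0.14 and 0.14, with unadjusted p of 0.086, 0.057 and 0.060 in edgeR and adjusted p of 0.979.

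By module, the median log2 fold change was -0.01 for the 8 genes of the N module, -0.05 for the 8 of the Q module and -0.02 for the 9 of the proximal and the 10 of the distal membrane arm. Without WT16 these medians were 0.03, 0.02, 0.05 and 0.05, and 3 rather than 7 of the 8 genes of the Q module were below 0. All 10 genes of the distal arm were below 0, from -0.09 for Ndufb2 to a value too near 0 to have a direction for Ndufb3 (unadjusted p of 0.998 in edgeR). The 10 Ndufb genes encode supernumerary subunits around the proton-pumping end. Under DESeq2 size factors 8 of the 10 were below 0, and without WT16 only Ndufb2 was.

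Assembly factors were described apart from subunits because they act on intermediates. Ndufaf1, which works on the early membrane arm, was at 14.1, 16.2, 18.6, 16.2 and 16.1 CPM in WT and 15.8, 15, 13.9 and 16.2 CPM in HET, in the embryo order above. The groups overlapped, with a log2 fold change of -0.09 (SE 0.094). Ndufaf8, a small partner of Ndufaf5, had the lowest value of the 8. It was at 7.38, 7.01, 9.13, 7.61 and 7.40 CPM in WT and 7.69, 6.94, 5.97 and 7.12 CPM in HET, with a log2 fold change of -0.15 (SE 0.115, adjusted p = 0.911 in edgeR). HET7 was the lowest embryo and WT16 the highest, and HET5 lay above 4 of the 5 WT embryos. Ndufaf5, a hydroxylase, and Ndufaf7, a methyltransferase, modify core subunits of the Q module and were both at -0.06. Ndufaf3 and Ndufaf4, which act together on the Q module, were at -0.07 and -0.06, and Ndufaf6 was at -0.04.

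Ndufaf2, a relative of the subunit Ndufa12 that occupies its place in late intermediates, was the only assembly factor of the 8 above 0, at 0.06 (SE 0.080). Its exonic bases overlap a gene on the opposite strand, B230220B15Rik, over 65.6% of their length, and whether counting used strand is not given, so its level is uncertain. The same applies in smaller measure to Ndufb6 (39.0% overlapped by Smim27) and Ndufa13 (30.0% by Tssk6).

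The genes that carry the name without the role were also uncalled. Ndufa4, a component of complex IV, was the most abundant of the 45 per length of principal transcript. On the union of annotated exons it had rank 3, at 107.9 CPM per kilobase in WT. Its level ranged from 131.2 to 176.1 CPM in WT and from 133.4 to 160.5 CPM in HET, with a log2 fold change of -0.04. Ndufa4l2, its hypoxia-inducible relative, was at 1.92, 2.06, 1.85, 1.69 and 1.32 CPM in WT and at 1.93, 1.82, 1.80 and 2.25 CPM in HET. It had the highest log2 fold change of the 45, at 0.14 (SE 0.158, adjusted p = 0.927 in edgeR), with 60 to 117 counts per embryo and overlapping groups.

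The difference that stood out among complex I genes lay between WT embryos. WT16 was the highest of the 9 embryos for 32 of 35 subunits and for 8 of 8 assembly factors. Among all tested genes WT16 was the highest embryo for 18.6%, and among the 25% of genes with the shortest exonic length for 29.5%. The 3 subunits with another highest embryo were Ndufa3 (HET6), Ndufb2 (WT41) and Ndufs5 (WT15). The median deviation of the 34 subunits other than Ndufs5 in WT16, measured as log2 CPM minus the mean of the other WT embryos, was 0.31, and all 34 were above 0. The median for the 8 assembly factors was 0.23, and for all tested genes it was -0.004.

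**Figure D3:**
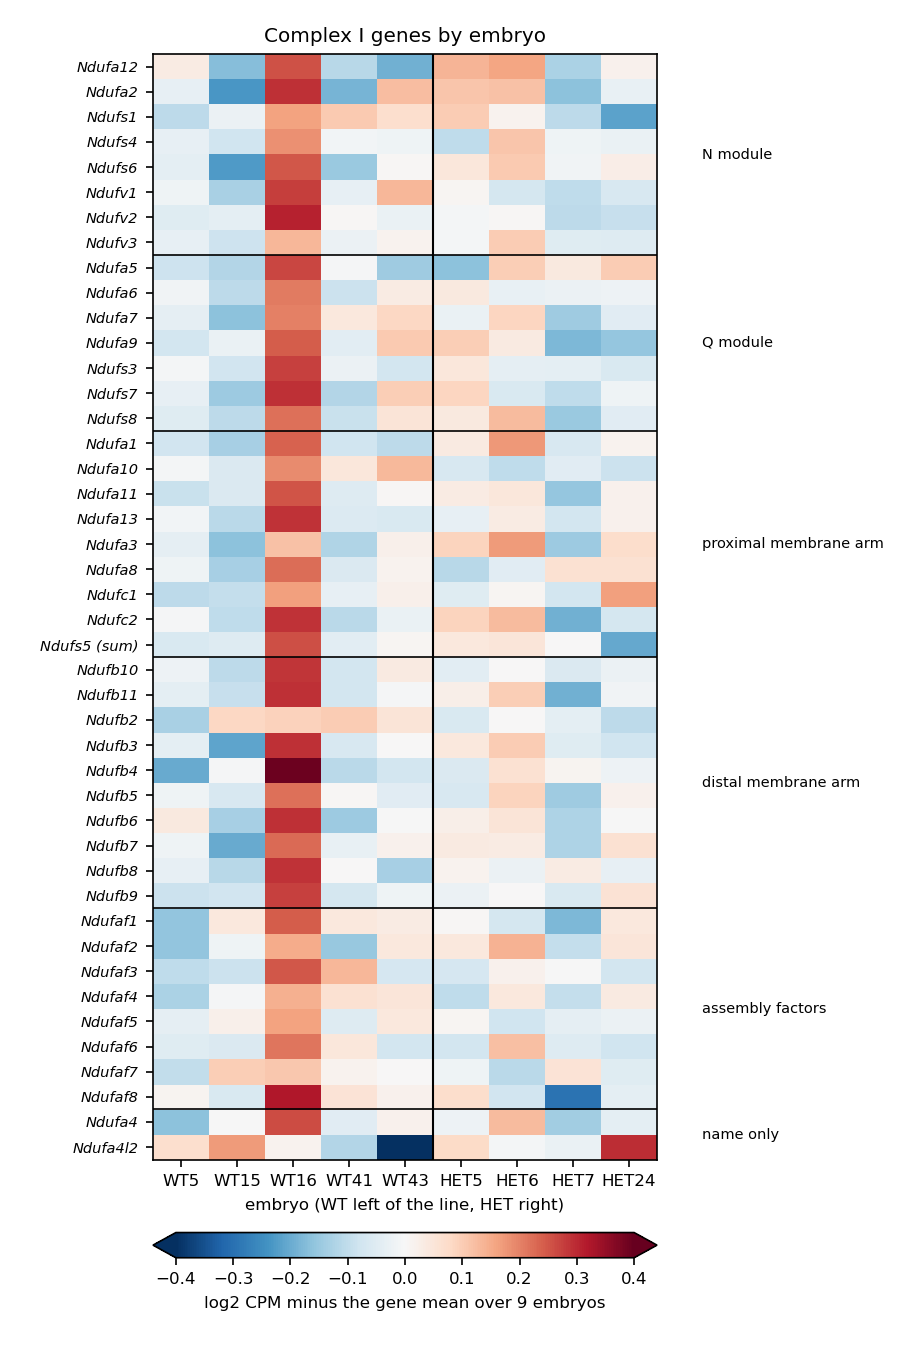
Log2 CPM of 44 genes in each embryo minus the mean of the gene over all 9 embryos, from blue (lower) to red (higher), with the colours saturating at the ends of the scale. Rows are grouped by module, the vertical line parts WT from HET, and for Ndufs5 the sum with its pseudogene is drawn. WT16 is the highest column for 32 of 35 subunits when Ndufs5 is read alone.

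The deviation of WT16 was not equal across members. It was largest for Ndufb4, a distal subunit, which was at 2.41, 2.76, 3.63, 2.57 and 2.63 CPM in WT5, WT15, WT16, WT41 and WT43, a deviation of 0.48 or 1.4-fold. Ndufb4 had only 100 to 167 counts per embryo and shares 18.3% of its 50-base words with other genes, so its level is uncertain. Ndufa2, an N module subunit with a thioredoxin-like fold, and Ndufb3, of the distal arm, followed at 0.38 and 0.37. Ndufa2 was at 58.7, 51.2, 73.6, 52.8 and 65.5 CPM in the WT embryos. The smallest deviations were 0.06 for Ndufb2, 0.15 for Ndufs1 and 0.16 for Ndufa10 among the subunits other than Ndufs5, and 0.10 for Ndufaf7 and 0.15 for Ndufaf4 among the assembly factors. By module the medians in WT16 were 0.31 for the N module, 0.26 for the Q module, 0.29 for the proximal arm without Ndufs5 and 0.34 for the distal arm.

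Other values moved with WT16. The median deviation in that embryo fell with exonic length, from 0.14 in the shortest 25% of tested genes (median 1455 bases) through 0.08 and -0.03 to -0.19 in the longest 25% (median 8631 bases), and 25 of 35 subunits and 5 of 8 assembly factors were among the shortest 25%. The 88 cytosolic ribosomal protein genes had a median deviation of 0.25 with 86 above 0. The summed level of all 5 erythroid markers was 565.6 CPM in WT16 and 207.1 to 471.0 CPM in the other WT embryos. The summed level of the 6 astrocyte markers was 589.7 CPM in WT16 and 622.8 to 687.6 CPM in the other WT embryos. Of these markers, Slc1a2 was lowest in WT16 among WT embryos at 82.7 CPM, as was Aqp4 at 1.17 CPM. Aldoc was highest there at 207.7 CPM, and Slc1a3, Gfap and Aldh1l1 lay within the range of the other WT embryos. The summed levels of the neuronal and radial glia markers in WT16 also lay within the range of the other WT embryos. The choroid plexus sum of WT16 was 2418.4 CPM, within the range of the other WT embryos, and WT15 and WT41, with similarly high Ttr, had subunit medians of -0.14 and -0.08. The part of exonic length, RNA composition, and blood, astrocyte and choroid plexus content in the level of complex I genes in WT16 was not tested.

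**Figure D4:**
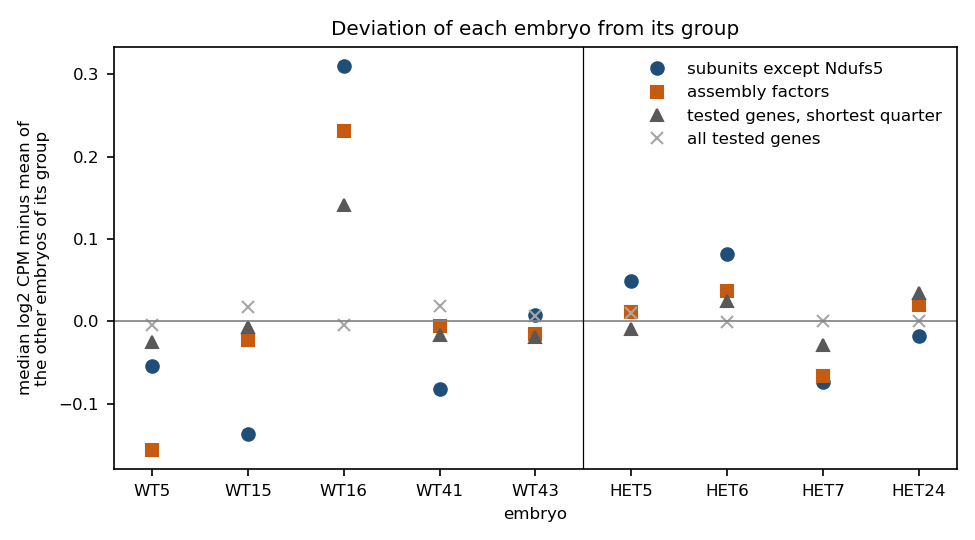
Median deviation of each embryo from the mean of the other embryos of its genotype, in log2 CPM, for subunits except Ndufs5, assembly factors, the shortest 25% of tested genes and all tested genes. WT16 stands at 0.31 for subunits and 0.14 for the shortest 25%, whereas all tested genes stay within 0.02 of 0 in every embryo.

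Smaller shifts of the same genes were found in other embryos. In WT15 the subunit median was -0.14 with 1 of 34 above 0, and WT15 was the lowest of all embryos for 15 of 35 subunits. In HET7 it was -0.07 with 6 of 34 above 0, and in HET6 it was 0.08 with 26 of 34 above 0. The cytosolic ribosomal protein genes had medians of -0.24 in WT15, -0.21 in HET7 and 0.11 in HET6. In WT5 the median of the assembly factors was -0.16 with 0 of 8 above 0, where that of the subunits was -0.05. The coefficient of variation of members other than Ndufs5 had a median of 10.7% in WT and 5.78% in HET, and it was 5.45% in WT without WT16. Tested genes in the same range of mean CPM had medians of 10.3% in WT and 8.93% in HET.

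Levels of different genes were compared per kilobase of exon. In WT, the median over subunits was 34.8 CPM per kilobase of the union of annotated exons and that over assembly factors was 10, a ratio of 3.47. With the length of the principal transcript the medians were 63.0 and 13.4 CPM per kilobase, a ratio of 4.7. None of the 8 assembly factors was above the subunit median on either length. Across the 8, levels per kilobase of exon union ranged from 3.84 ± 0.33 (SD, n = 5) for Ndufaf6 to 12.7 ± 1.42 (SD, n = 5) for Ndufaf3. The corresponding medians in HET were 35.4 for the subunits and 9.47 for the assembly factors on the exon union.

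**Figure D5:**
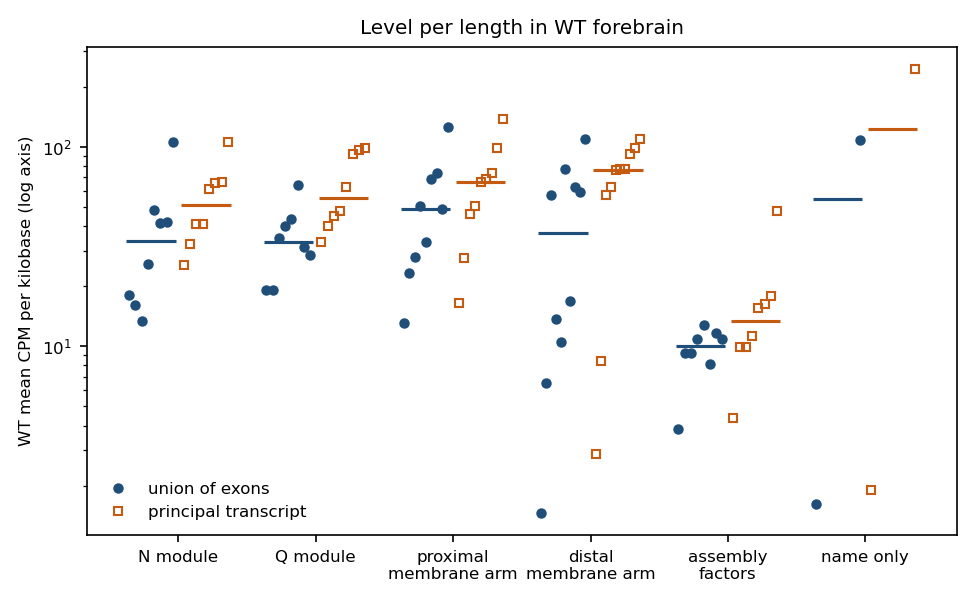
WT mean level of each gene in CPM per kilobase on a log axis, by module, for the union of exons (filled circles) and for the principal transcript (open squares), with the median of each class as a line. The assembly factors have a median of 10 on the exon union, below the subunit median of 34.8, and the distal arm spans 1.46 to 109.6.

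The highest subunits per kilobase of exon union were Ndufc2 at 125.2 ± 14.9, Ndufb11 at 109.6 ± 12.8 and Ndufa2 at 105.6 ± 16.3 CPM (SD, n = 5), which overlap within their spread. Ndufc2 and Ndufb11 are small membrane-arm subunits. The lowest were Ndufb4 at 1.46 ± 0.252, Ndufb2 at 6.53 ± 0.424 and Ndufb7 at 10.5 ± 1.13 CPM. The rank of Ndufb7 rested on the length used, since its exon union spans 4522 bases and its principal transcript 623, on which its level was 76.3 CPM per kilobase. Ndufb4 and Ndufb2 stayed lowest among the subunits at 2.88 and 8.41. Of the 50-base words in Ndufb4, 18.3% also occur in Ndufb4c, Gm16056 or Gm20519, and how reads that match several genes were counted is not given, so its level is uncertain. The same holds for Ndufs3 (17.9%, with Gm12251, Gm11927 and Kbtbd4), Ndufa12 (17.7%) and Ndufb11 (17.5%, with Gm6444 and Rbm10).

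Promoters of the members were read for sequence elements, as a description of what these genes share. RefSeq promoters of GRCm38.p6, 250 bases before to 50 bases after the start, were held for 39 of the 45 genes in 41 windows. The binding motif of NRF1, a regulator of nuclear genes for mitochondria, was searched on both strands as GCGCA and GCGC with any 1 base between them, and was found in 24.4% of the member windows and 4.6% of all 32851 windows. The motif of YY1, searched as ATGGCGGC, was found in 19.5% and 2.24%. Of the 7 member genes with these letters, 6 held them across or after the transcription start and 1 upstream of it. An ETS motif, CCGGAAG, was found in 14.6% and 8.86%. The E-box CANNTG, the general element of basic helix-loop-helix factors, was found in 70.7% of member windows and 72.3% of all windows. Member windows were also richer in G and C, with a median of 59.3% against 52.7%. Ndufs6 was the only member with letters of both NRF1 and YY1, and these did not overlap.

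The 120 bases upstream of the start are shown for 3 of the 9 members with NRF1 letters, on the strand of the gene and with the letters in capitals. They were chosen after the matches were seen, as 2 subunits of the proximal membrane arm and an assembly factor with the letters at different distances from the start. They lie at chr17:56717642-56717761 for Ndufa11, chr4:123718187-123718306 for Ndufs5 and chr4:24897963-24898082 for Ndufaf4.

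Ndufa11: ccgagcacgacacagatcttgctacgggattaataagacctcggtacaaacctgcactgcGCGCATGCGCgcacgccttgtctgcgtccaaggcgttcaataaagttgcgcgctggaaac

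Ndufs5: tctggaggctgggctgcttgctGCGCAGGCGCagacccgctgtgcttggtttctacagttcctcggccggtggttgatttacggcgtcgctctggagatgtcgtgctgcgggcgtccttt

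Ndufaf4: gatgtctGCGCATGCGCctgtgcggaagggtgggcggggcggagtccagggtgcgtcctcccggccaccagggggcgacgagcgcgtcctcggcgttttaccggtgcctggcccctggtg

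Complex I genes without the Nduf name pattern were not called either. Of 14 other assembly factors, 13 were in the table and 0 were called, with 10 below 0 and 3 above 0 and a median log2 fold change of -0.07. Without WT16, 7 were below 0 and 6 above 0, with a median of -0.03. The lowest was Timmdc1, a membrane-arm assembly factor, at -0.14 (SE 0.072, adjusted p = 0.911 in edgeR), and it stayed at -0.14 without WT16. It was at 26.6, 29.7, 27.7, 27.5 and 29.2 CPM in WT and 26.3, 25.6, 22.8 and 27.6 CPM in HET, and HET24 lay within the WT range. The highest was Tmem126b, also of the membrane-arm assembly complex, at 0.08. Ndufab1, the acyl carrier subunit, was at -0.06. Of 7 subunit genes in mitochondrial DNA, 5 were tested with 0 called and a median of -0.05, which was 0.06 among embryos with Ttr under 100 CPM. The other 2, mt-Nd3 and mt-Nd4l, were listed at 0 in every embryo. Mitochondrial transcripts took 1.55% to 1.99% of the counts.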

How the data were processed

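Poly(A) RNA from forebrain of 9 female embryos was made into TruSeq libraries and sequenced on an Illumina HiSeq instrument, and 1 read of each pair was used. Reads were mapped by the authors with STAR 2.7.9a to GRCm38.p6, and featureCounts assigned them to GENCODE M25 genes. The deposited table holds whole counts of reads per gene, not normalized, with 1 column per embryo. Strand and multi-mapping settings are not given in the sources used here. Groups follow the genotype labels, and 0 columns were left unmapped. No pair of embryos had alike counts: the most alike pair differed at 26009 genes.

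Counts were filtered with edgeR 4.0.16 (filterByExpr, minimum count 10), scaled by TMM and tested by the quasi-likelihood test, HET against WT, with no covariate, in R 4.3.3. Benjamini-Hochberg adjustment ran over all 17818 tested genes, with 0.05 as the threshold. CPM are scaled by TMM, and deviations used log2 CPM with a prior count of 2. Gene positions, lengths and overlaps were taken from GENCODE M21, where 55141 of the 55401 identifiers and all 45 members were found. Alternatives were DESeq2 1.42.0, limma-voom 3.58.1, other scalings and filters, a choroid plexus covariate, only embryos with Ttr under 100 CPM, leaving out each embryo, another transcript length, and, added after seeing the data, the sum of Ndufs5 and Ndufs5-ps and the principal transcript length. Binomial intervals were exact (Clopper-Pearson) in scipy 1.17.1.

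The members, gene lists and modules were chosen with earlier results of these data known. The genes named were the 7 nuclear core subunits, every Ndufaf gene, members with an unadjusted p under 0.05, the 5 highest and 5 lowest fold changes, the 3 highest and 3 lowest subunits per kilobase, Ndufa4 and Ndufa4l2, and the 3 largest deviations in the embryo that stood furthest apart. Other genes named were chosen after their values were seen. The values of 1 member are not reported here, and it is included in counts and medians.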

Additional observations from a re-analysis of the deposited data

Results flagged for a closer look

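In groups of 4 or 5 embryos, a value was marked where the gap between the highest or lowest embryo and its nearest neighbour was large against the range of the group by Dixon's criterion. Of 66 groups of values, 12 were marked. Chance marks about 1 in 20 groups when groups are independent, which these are not. The same embryos gave every group, and some genes were named for their fold change or their deviation in WT16. The count of marks was therefore not set against chance. WT16 gave 6 of them, each as the highest WT embryo: Ndufa1 at 37.1 CPM, Ndufaf8 at 9.13 CPM, Ndufb11 at 119.9 CPM, Ndufc2 at 113.9 CPM, Ndufs3 at 49.6 CPM and Ndufv2 at 124.3 CPM. WT15 was marked for Ndufs5 at 16.4 CPM, and for the 98.1% of the counts of Ndufs5 and Ndufs5-ps that fell on Ndufs5. WT5 was the low WT embryo for Ndufb2 at 32.6 CPM. Among HET embryos, HET7 was low for Ndufb7 at 43.5 CPM and for the mean log2 CPM of the assembly factors at 4.029, and HET6 was high for Ndufaf6 at 5.08 CPM. The part of any technical or biological difference between embryos in these values was not tested.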

How the results depend on the processing

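The count of 0 called members held under every alternative run. Of all 17818 tested genes, 25 were called. DESeq2 called 84, but it was run without the low-count filter and gave a p value for 33233 genes. Tool and gene set therefore both differ in that comparison, and edgeR without the filter called 35. The count was 15 among embryos with Ttr under 100 CPM. It was 14 to 23 when 1 embryo was left out, with the fewest, 14 to 16, without HET6, HET5 or HET7. The median log2 fold change ranged from -0.05 to 0.04 for the subunits and from -0.09 to -0.03 for the assembly factors when 1 embryo was left out, and members below 0 ranged from 15 (without WT16) to 38. With embryos of low Ttr only (WT5, WT43, HET5, HET6 and HET7, so without WT16), both medians were 0.005. Levels per kilobase in WT were 49.6 for subunits on the longest transcript, and 63.0 for subunits and 13.4 for assembly factors on the principal transcript, against 34.8 and 10. The median deviation of the subunits in WT16 was 0.316 with DESeq2 size factors and 0.353 with upper-quartile scaling. Of 30 named genes, 14 kept the sign of their log2 fold change in every alternative, and none of the 30 was called in any. Signs turned as follows, and the cause was not tested. Ndufb3 was at 0.002 with DESeq2, 0.007 with limma-voom, 0.005 with DESeq2 size factors in edgeR and 0.002 with at least 1 CPM in 4 embryos. Ndufb7 was at 0.002 with limma-voom and 0.003 with DESeq2 size factors. Ndufa2 was at -0.001 with upper-quartile scaling and below 0 by less than that with no low-count filter. With the choroid plexus covariate, Ndufa2 was at -0.035 and Ndufb4 at 0.051. With embryos of low Ttr only, Ndufa2 was at -0.019, Ndufa4 at 0.063, Ndufaf3 at 0.066, Ndufaf6 at 0.061, Ndufaf7 at 0.024, Ndufb11 at 0.005, Ndufb2 at 0.003, Ndufb3 at 0.052, Ndufb4 at 0.144, Ndufc2 at 0.031, Ndufs1 at 0.023, Ndufs3 at 0.029, Ndufs8 at 0.010 and Ndufv2 at 0.002. Leaving out 1 embryo gave ranges of -0.045 to 0.089 for Ndufa2, -0.082 to 0.033 for Ndufa4, -0.085 to 0.013 for Ndufaf6, -0.078 to 0.036 for Ndufb11, -0.048 to 0.081 for Ndufb3, -0.065 to 0.095 for Ndufb4, -0.048 to 0.059 for Ndufb7, -0.068 to 0.053 for Ndufc2, -0.072 to 0.021 for Ndufs3, -0.089 to 0.024 for Ndufs7 and -0.056 to 0.045 for Ndufs8. No paired analysis was possible because the groups share only 1 label number, and nothing says that it marks a shared litter or day. The effect of depth was not tested. The lowest counts were those of Ndufs5 in HET7 and HET24, with 34 and 29. Next came Ndufa4l2 with 60 to 117 counts per embryo, Ndufb4 with 100 to 167, Ndufaf6 with 188 to 306 and Ndufaf8 with 289 to 483.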
